A study of Mus musculus with 4 samples.

Results

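The 51 genes described here encode the machinery that copies DNA and the factors that switch it on at the start of S phase: origin licensing, helicase activation, the sliding clamp and its loader, the polymerases, single-strand binding and fragment joining, nucleotide supply, cyclin E with the E2F factors, and chromatin and fork protection. They were taken by gene symbol from a named list, 51 of 55536 annotated mouse genes. The rule itself uses no measured value, but the list was drawn up with earlier results of these data known. Total RNA depleted of ribosomal RNA was sequenced from the cytosolic fraction of bone marrow-derived macrophages of C57BL/6J mice, primary cells that had received lipid A, the Toll-like receptor 4 ligand of bacterial endotoxin, at 100 ng/ml for 15 min. There was 1 group with 4 libraries, numbered as biological replicates 1 to 4, each made from 1 µg of RNA. No untreated sample was analysed here, so no value below is an effect of lipid A. The labels give all 4 libraries the same donor record, do not collect sex or age, and give no separate animal or culture for any replicate. The p-values therefore measure only the spread between these libraries, which may be technical.

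Replication origins are licensed in G1, when the origin recognition complex, Cdc6 and Cdt1 load the Mcm2 to Mcm7 helicase onto DNA. Cdc45 and the GINS proteins then turn the helicase on, and the polymerases follow with the PCNA clamp. Many of these genes are transcribed together at the G1-S boundary by E2F factors, and macrophages grown from bone marrow in culture can divide before they mature.

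The libraries held between 30088678 and 47961117 expected counts over annotated genes, the lowest in replicate 1, and a count of 3 corresponded to 0.0997 CPM (counts scaled to library size) in replicate 1 and to between 0.0626 and 0.0745 CPM in the other libraries. Replicate 1 stood apart over the whole table. In edgeR's quasi-likelihood test of 14041 genes, 14.5% of genes were higher and 7.58% were lower in replicate 1 than in the other 3 libraries at a Benjamini-Hochberg adjusted p of 0.05. The same test gave 0 calls, or 0% in either direction, for replicates 2, 3 and 4, each set against the other 3, with 277, 135 and 104 genes at an unadjusted p under 0.05; DESeq2 called 8 genes lower in replicate 2, 2 higher and 1 lower in replicate 3, and 5 higher and 12 lower in replicate 4. Those comparisons have replicate 1 on their other side, which widens the spread, so their lack of calls says little. Without replicate 1, edgeR called 1 gene higher and 81 lower in replicate 2, and none of the 51 genes was among them. The lone library of each comparison has no spread of its own, and it was assumed to vary like the other 3. All 16 macrophage markers had a mean of at least 1 TPM (counts scaled to transcript length and library), while 0 of 10 progenitor markers and 0 of 10 T and NK cell markers did. Of the macrophage markers 3 were called higher and 1 lower in replicate 1, with a median log2 fold of -0.16, and on log2 CPM replicate 1 was the lowest library for 11 of the 16. Over all genes, replicate 1 was the lowest library for 4700 of the 14041 tested. The part of the macrophage markers in the differences of the replication genes was not tested. The progenitor markers summed to 2.43 TPM in replicate 1, against 2.40, 3.04 and 2.04 TPM in replicates 2, 3 and 4. Erythroid markers summed to 1.40 TPM in replicate 1, against 1.63, 2.24 and 2.79 TPM in the others, with Hbb-bt and Slc4a1 listed at 0 throughout. Neutrophil, B cell and stromal lists had 4, 2 and 0 of 10 genes at a mean of 1 TPM or more, and none of their summed levels was highest in replicate 1.

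Together the 51 replication genes summed to 826 TPM in replicate 1, against 211, 219 and 300 TPM in replicates 2, 3 and 4. Their share of the counts was 0.282% in replicate 1, against 0.0857%, 0.0862% and 0.0886% in the other libraries. In this bulk RNA, more cells in S phase and more replication RNA per cell cannot be told apart. Replicate 1 was called higher for 49 of the 51 genes and lower for 0, beside the 14.5% and 7.58% of all genes, with 0 lower at an unadjusted p under 0.05 in edgeR and 0 lower in DESeq2. The median log2 fold of replicate 1 over the other 3 libraries was 2.00, against -0.0045 for all genes tested. All 51 genes passed the filter of a mean count of at least 10, and all 51 had a positive log2 fold. With replicate 2, 3 or 4 as the lone library, edgeR called 0 of the 51, with 0 at an unadjusted p under 0.05 and 0 calls by DESeq2. Their median log2 folds, which lay between -1.05 and -0.89, have replicate 1 among the 3 libraries on the other side.

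The 51 genes lay mostly at modest levels. Of them, 48 had a mean of at least 1 TPM and 7 a mean of at least 10 TPM, and Orc1, Gins3 and E2f7 lay below 1 TPM. These levels leaned on replicate 1: over replicates 2, 3 and 4 alone, 14 genes had a mean under 1 TPM, among them Cdc6 at 0.477, Pole at 0.493 and Ccne2 at 0.757 TPM, and 6 had a mean of at least 10 TPM. On the second set of deposited tables, the mean TPM was lower for all 51 genes, by a median of 2.22 times and by over 1.5 times for 50. Replicate 1 had the highest TPM for 49 genes and exceeded the next library more than 2 times for 43 of them. Replicate 4 lay above replicates 2 and 3 in TPM for 49 genes. On log2 CPM scaled by edgeR's trimmed mean of M-values (TMM), replicate 1 was highest for all 51, beside 41.4% of all genes tested. The lowest library was replicate 2 for 21 genes, replicate 3 for 12 and replicate 4 for 18. Over all 14041 genes tested, replicate 1 was lowest for 4700, replicate 2 for 2929, replicate 3 for 2791 and replicate 4 for 3621. Rn7s, an abundant small cytosolic RNA, took 57.6% of the TPM of replicate 1, against 63.3%, 60.9% and 57.1% in replicates 2, 3 and 4, so that TPM of the other genes is not on an equal footing between libraries. Its part in the order of replicates 2 to 4 was not tested.

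**Figure D1:**
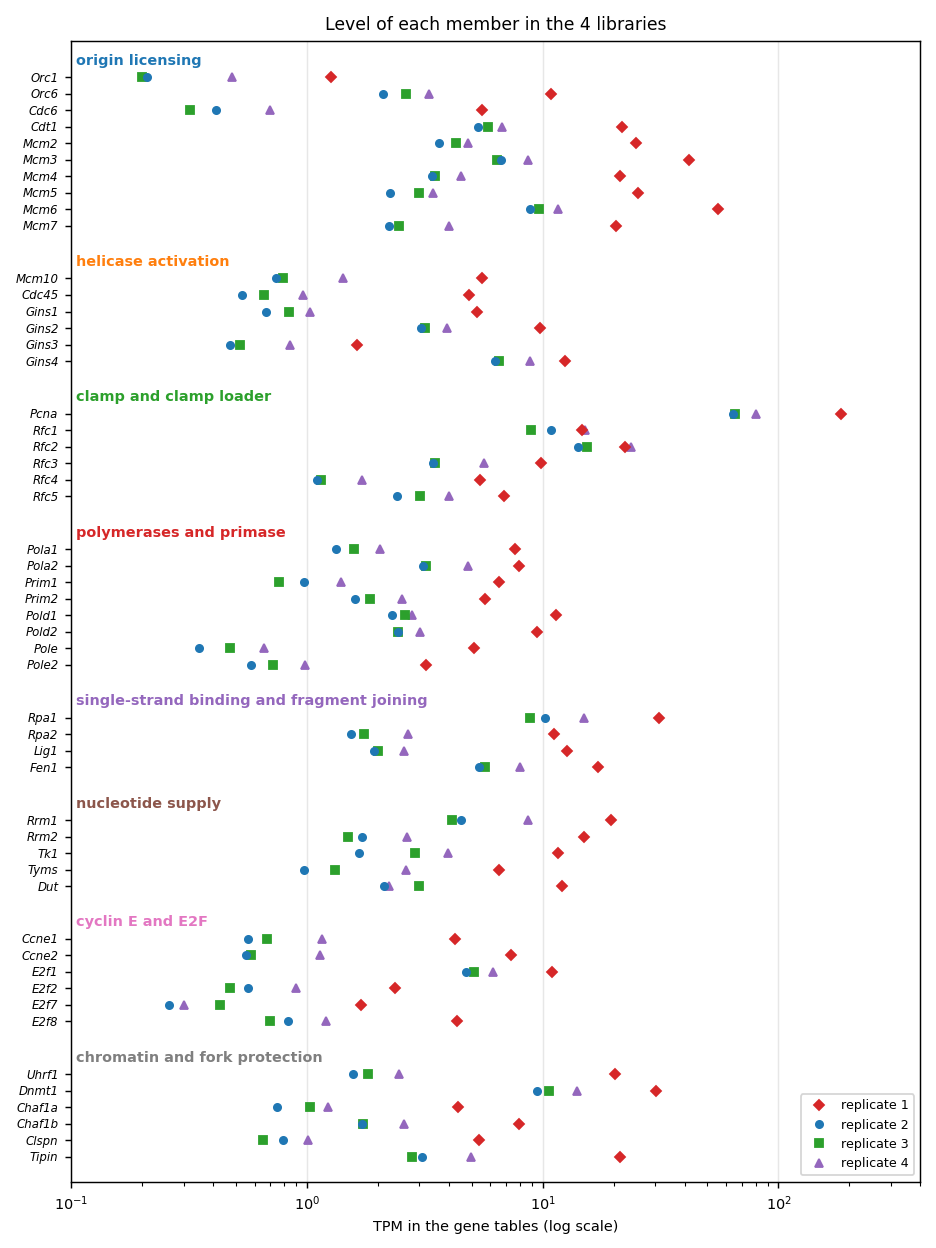
The level of each of the 51 genes in the 4 libraries, in TPM on a log scale, with the genes grouped by replication step. Replicate 1 (red diamonds) lies to the right of the other libraries for 49 genes, and replicate 4 exceeds it for Rfc1 and Rfc2.

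E2F factors bind promoters through a core of T and G or C letters, so the promoters of these genes are shown before their levels. RefSeq promoter sequences (250 bases before to 50 after the annotated start, GRCm38.p6) were matched for 42 of the 51 genes. The letters TTTCCCGC, TTTGGCGC, TTTCGCGC and TTTGCCGC were searched on both strands, and the 4 forms can overlap each other. They occurred for 18 of the 42 genes, or 42.9%. Among genes with a promoter sequence, they occurred for 4.79% of the 9767 tested and 2.61% of all 27025. Where a gene had several promoter sequences, a match in any of them counted. The CCAAT letters, the core of the NF-Y box, occurred for 64.3% of the 42 genes. That compares with 42.8% of tested genes and 41.1% of all genes with a promoter sequence. TTTGAA, the core of the cell cycle homology element, occurred for 19.0% of the 42 genes. It occurred for 14.8% of tested genes and 20.2% of all genes with a promoter sequence. The members thus lay above tested genes and below all genes with a promoter sequence. These are matches of letters and not sites. Below are stretches around the letters that lie before the RefSeq start. Genes whose stretch held more exon bases of the gene than a set limit were left out first. Of the rest, the widest-ranging gene is shown for each step that still had one, and the 2 Mcm genes that also remained. Helicase activation, the clamp and its loader, single-strand binding and fragment joining, and nucleotide supply had none to show. The capitals mark the E2F letters on either strand. Each stretch shown holds 0 bases of an exon of its gene in GENCODE M21, which follows in part from that limit. In that annotation the stretches of Cdc6 and Uhrf1 lie inside the span of the gene, downstream of its first base.
Cdc6 (chr11:98907983-98908050, plus strand): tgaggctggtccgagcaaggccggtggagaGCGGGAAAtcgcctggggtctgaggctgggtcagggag
Mcm5 (chr8:75109326-75109397, plus strand): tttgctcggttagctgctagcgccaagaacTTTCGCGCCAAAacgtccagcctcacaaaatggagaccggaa
Mcm6 (chr1:128359715-128359845, minus strand): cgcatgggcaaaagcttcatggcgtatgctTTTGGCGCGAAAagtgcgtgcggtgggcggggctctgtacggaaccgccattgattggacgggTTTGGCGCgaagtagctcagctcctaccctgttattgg
Pola1 (chrX:93632256-93632323, minus strand): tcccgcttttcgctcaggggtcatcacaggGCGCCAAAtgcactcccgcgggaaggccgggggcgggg
E2f7 (chr10:110745211-110745278, plus strand): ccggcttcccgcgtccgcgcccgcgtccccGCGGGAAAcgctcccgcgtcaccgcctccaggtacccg
Uhrf1 (chr17:56304098-56304165, plus strand): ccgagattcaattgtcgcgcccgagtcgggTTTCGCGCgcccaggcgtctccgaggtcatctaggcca

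The Mcm6 promoter held 3 matches, starting 110, 106 and 47 bases before the RefSeq start, and the Mcm5 promoter held 2 that overlap, starting 153 and 149 bases before it. Cdc6 and Pola1 each held 1, at 138 bases before the start, Uhrf1 held 1 at 185 and E2f7 1 at 198. For Mcm5 and Mcm6 the bases after the RefSeq start were not found in a GENCODE transcript of the gene, whereas they were for 38 of the 42 genes. The median between-library range, defined as the highest minus the lowest log2 CPM of the 4 libraries, was 2.32 for the 18 genes with the letters and 2.02 for the 24 genes without them. The spans of the 2 sets overlapped, from 1.18 to 3.36 with the letters and from 0.20 to 2.86 without, and no test was made of this difference.

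Origin licensing had the largest median fold of the 8 steps. All 10 of its genes were called higher in replicate 1, with a median log2 fold of 2.28 and folds between 1.60 and 3.31. Cdc6, the ATPase that helps to load the helicase (chr11:98907801-98923940 in GENCODE M21 on mm10), had 5.52 TPM in replicate 1, against 0.41, 0.32 and 0.70 TPM in replicates 2, 3 and 4. Replicate 1 was far above the other 3, which differed among themselves in TPM and lay closer together on TMM-scaled log2 CPM, at 1.27, 1.19 and 1.31 in replicates 2, 3 and 4. Its log2 fold was 3.31 ± 0.13 (SE) with an adjusted p of 0.00142 in edgeR, and its TPM differed 17.2 times between the highest and the lowest library, the widest ratio of the 51. Cdt1, its partner in loading, had 21.6 TPM in replicate 1, against 5.34, 5.84 and 6.69 TPM in the others, with the smallest log2 fold of the step, 1.60 ± 0.14. Orc1 and Orc6, subunits of the origin recognition complex, had log2 folds of 2.44 ± 0.33 and 1.77 ± 0.15. Orc1 rested on few reads, with 170 counts in replicate 1, against 43, 31 and 56 counts in the others.

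The 6 subunits of the Mcm2 to Mcm7 helicase had log2 folds between 2.21 and 2.98 in replicate 1 over the other 3 libraries. Their TPM summed to 189 in replicate 1, against 27.0, 29.3 and 37.0 in replicates 2, 3 and 4. Mcm6 (chr1:128331590-128359664) was the most abundant, with 55.4 TPM in replicate 1, against 8.80, 9.63 and 11.6 TPM in the others. Mcm5 had 25.3 TPM in replicate 1, against 2.25, 2.99 and 3.44 TPM in the others. In both genes replicate 1 was far above the other 3 libraries. Mcm5 had the largest log2 fold of the 6, 2.98 ± 0.12 with an adjusted p of 0.0014 in edgeR, and Mcm3 the smallest, 2.21 ± 0.09. Mcm7, whose log2 fold was 2.68 ± 0.11, shares 33.4% of its 31-base words (stretches of 31 bases in its transcripts) with other annotated genes on either strand, so its counts are less certain. Within a library the most abundant subunit exceeded the least abundant by 2.70 times in replicate 1, against 3.93, 3.91 and 3.36 times in replicates 2, 3 and 4.

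Helicase activation had a median log2 fold of 1.75 and all 6 genes called higher, but the genes were spread widely. Cdc45, part of the active helicase, had 4.85 TPM in replicate 1, against 0.53, 0.66 and 0.96 TPM in replicates 2, 3 and 4, and a log2 fold of 2.61 ± 0.17. Mcm10, which acts when the helicase starts to unwind, had a log2 fold of 2.28 ± 0.14. Both lay far higher in replicate 1 than in any other library. The 4 GINS subunits form 1 complex, yet their log2 folds were 2.35 ± 0.26 for Gins1, 1.22 ± 0.23 for Gins3, 1.04 ± 0.13 for Gins2 and 0.53 ± 0.10 for Gins4. Gins4 had 12.4 TPM in replicate 1, against 6.28, 6.54 and 8.80 TPM in the others. Gins1 had 5.29 TPM in replicate 1, against 0.67, 0.84 and 1.03 TPM. Replicate 1 was the highest library for each of the 4, but by a far smaller margin for Gins4. Gins2 shares 66.2% of its 31-base words with Gse1, which averaged 1557 counts, so its counts may hold reads of that gene. The Gins4 call was lost without replicate 4 (adjusted p = 0.0702) and in DESeq2 (adjusted p = 0.0543), and the Gins3 call without replicate 3 (adjusted p = 0.0529).

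The clamp and its loader had the smallest median fold of the steps. Of 6 genes, 4 were called higher in replicate 1, with a step median log2 fold of 0.96. Pcna, the sliding clamp that tethers the polymerases (chr2:132249162-132253314), was the most abundant of the 51 genes, with 185 TPM in replicate 1, against 64.4, 65.2 and 80.7 TPM in replicates 2, 3 and 4. Its log2 fold was 1.14 ± 0.13 with an adjusted p of 0.00684 in edgeR, and 23.3% of its 31-base words are shared with the pseudogene Pcna-ps2. Replicate 1 lay above the other 3 libraries, and of those replicate 4 was the highest in TPM.

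The 5 loader subunits covered a wide span. Rfc4 had 5.44 TPM in replicate 1, against 1.10, 1.15 and 1.71 TPM in the others, with a log2 fold of 1.84 ± 0.20. Rfc3 and Rfc5 followed, with 1.11 ± 0.15 and 0.80 ± 0.15. The large subunit Rfc1 (chr5:65261850-65335670) had 14.7 TPM in replicate 1, against 10.9, 8.96 and 15.1 TPM in the others. Rfc2 (chr5:134581366-134601805) had 22.3 TPM in replicate 1, against 14.1, 15.4 and 23.7 TPM. For these 2 genes replicate 4 was the highest in TPM and replicate 1 lay within the span of the others. Their log2 folds were 0.15 ± 0.09 with an adjusted p of 0.297 and 0.21 ± 0.09 with an adjusted p of 0.159 in edgeR, so they were the 2 of the 51 genes that did not pass the test. The transcript with the largest share of Rfc2 was a retained-intron form of 831 bases, with 64.2% ± 2.73 (SD, n = 4) of the gene's TPM. Rfc2 shares 19.3% of its 31-base words with other genes, including 14.6% with Lat2, which averaged 6243 counts. Rfc5 also shares 19.3%, including 9.93% with Wsb2, which averaged 6511 counts. Rfc4 shares 10.5% with Eif4a2, which averaged 4058 counts, against 140 for Rfc4. The counts of Rfc2, Rfc4 and Rfc5 may hold reads of these partners, and the effect on their folds was not tested.

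All 8 polymerase and primase genes were called higher, with a median log2 fold of 1.85. The catalytic subunit of the leading-strand polymerase, Pole, had 5.13 TPM in replicate 1, against 0.35, 0.47 and 0.66 TPM in replicates 2, 3 and 4. Prim1, the primase catalytic subunit, had 6.55 TPM in replicate 1, against 0.97, 0.76 and 1.39 TPM. Pola2, the accessory subunit of polymerase alpha, had 7.94 TPM in replicate 1, against 3.11, 3.21 and 4.84 TPM. Replicate 1 was highest in all 3 genes, most clearly in Pole and least in Pola2. Their log2 folds were 2.72 ± 0.22 for Pole, 2.39 ± 0.18 for Prim1 and 0.87 ± 0.09 for Pola2. The catalytic Pola1 stood at 1.96 ± 0.11 and the second primase subunit Prim2 at 1.28 ± 0.14. The accessory Pole2 stood at 1.95 ± 0.24. Pold1 and Pold2 of the lagging-strand polymerase delta had log2 folds of 1.76 ± 0.13 and 1.52 ± 0.13.

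The 4 genes that bind single strands and join fragments formed 2 pairs by size of fold. Rpa2, the middle subunit of the single-strand binding protein, had 11.2 TPM in replicate 1, against 1.54, 1.75 and 2.69 TPM in replicates 2, 3 and 4. Its large partner Rpa1 had 31.3 TPM in replicate 1, against 10.2, 8.83 and 15.0 TPM. Replicate 1 was the highest library for both, and its margin was larger for Rpa2. Their log2 folds were 2.30 ± 0.11 and 1.11 ± 0.09. Lig1, the ligase that seals Okazaki fragments, had a log2 fold of 2.30 ± 0.12, and the flap nuclease Fen1 one of 1.19 ± 0.09. Fen1 shares 79.6% of its 31-base words with other genes, mostly with Gm10143, which averaged 23.9 counts.

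Nucleotide supply had a median log2 fold of 2.00, with all 5 genes called higher. Rrm2, the regulated small subunit of ribonucleotide reductase, had 14.9 TPM in replicate 1, against 1.72, 1.49 and 2.66 TPM in replicates 2, 3 and 4. The large subunit Rrm1 had 19.5 TPM in replicate 1, against 4.51, 4.14 and 8.64 TPM. Replicate 1 stood above the other libraries in both, with log2 folds of 2.70 ± 0.12 for Rrm2 and 1.73 ± 0.12 for Rrm1. The ratio of Rrm1 to Rrm2 in TPM was 1.31 in replicate 1, against 2.62, 2.78 and 3.25 in the others. Dut, which removes dUTP, had a log2 fold of 2.14 ± 0.23, and the thymidine kinase Tk1 one of 2.00 ± 0.24. Tyms, which makes dTMP, had 6.52 TPM in replicate 1, against 0.97, 1.31 and 2.63 TPM, and the largest standard error of the 51 genes. Its log2 fold was 1.76 ± 0.35 with an adjusted p of 0.0265, which lost the call without replicate 3 (adjusted p = 0.0559) and on the second set of deposited tables (adjusted p = 0.0546). The transcript with the largest share of Tyms was a form of 618 bases annotated as subject to nonsense-mediated decay, with 63.4% ± 9.15 (SD, n = 4).

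All 6 genes of the cyclin E and E2F step were called higher, with a median log2 fold of 2.16. Ccne2, a cyclin that starts S phase with Cdk2, had 7.37 TPM in replicate 1, against 0.55, 0.58 and 1.14 TPM in replicates 2, 3 and 4. Ccne1 had 4.25 TPM in replicate 1, against 0.56, 0.68 and 1.16 TPM. Their log2 folds were 3.03 ± 0.11 and 2.25 ± 0.20. In each gene the other 3 libraries lay well below replicate 1. Ccne2 shares 15.6% of its 31-base words with Ints8, which averaged 838 counts, so its counts may hold reads of that gene. E2f1, an activator of S-phase genes, was the most abundant E2F of the list, with 11.0 TPM in replicate 1, against 4.74, 5.11 and 6.18 TPM, and the smallest log2 fold of the step, 0.78 ± 0.13. E2f2, also an activator, had 1.68 ± 0.17. The repressors E2f7 and E2f8 had 2.42 ± 0.30 and 2.07 ± 0.14. E2f7 was scarce, with 329 counts in replicate 1, against 78, 94 and 76 counts in the others.

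The 6 chromatin and fork protection genes were all called higher, with a median log2 fold of 2.08. Uhrf1, which brings Dnmt1 to newly copied DNA (chr17:56303321-56323486), had 20.3 TPM in replicate 1, against 1.57, 1.81 and 2.45 TPM in replicates 2, 3 and 4. Dnmt1, the maintenance DNA methyltransferase, had 30.2 TPM in replicate 1, against 9.49, 10.6 and 14.0 TPM. Replicate 1 was the only high library for Uhrf1 and the highest of a narrower span for Dnmt1. Their log2 folds were 3.17 ± 0.11 and 1.18 ± 0.09. The ratio of Dnmt1 to Uhrf1 in TPM was 1.48 in replicate 1, against 6.04, 5.86 and 5.72 in the others. Clspn and Tipin, which steady the fork and signal to the checkpoint, had log2 folds of 2.43 ± 0.10 and 2.09 ± 0.16. The chromatin assembly factor subunits Chaf1a and Chaf1b had 2.07 ± 0.12 and 1.75 ± 0.11. Uhrf1 shares 24.2% of its 31-base words with other genes, mostly with Gm5648, which averaged 1.3 counts. Chaf1a shares 50.9% with Ubxn6, which averaged 1489 counts, so the Chaf1a counts may hold reads of that gene. The Rrm1 to Rrm2 and Dnmt1 to Uhrf1 ratios were chosen after their values were seen.

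**Figure D2:**
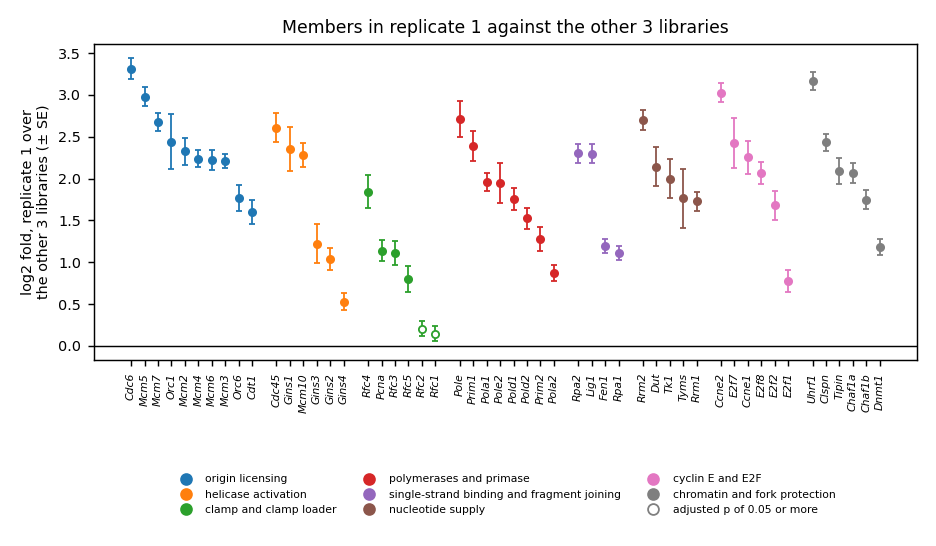
The log2 fold of replicate 1 over the other 3 libraries for each of the 51 genes, grouped by step. Error bars are 1 standard error, derived from the fold and edgeR's F statistic. Filled points had an adjusted p under 0.05, and the 2 open points are Rfc2 and Rfc1.

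The between-library range was then compared by step on log2 CPM. The median range of the 51 genes was 2.21, against 0.57 for all 14041 genes tested, whose 90th percentile was 2.12. Of the 51, 27 lay above that percentile, 6 above the 95th percentile of 2.81 and 0 above the 99th percentile of 3.87. The step medians were 2.46 for origin licensing, 2.39 for nucleotide supply, 2.31 for cyclin E and E2F and 2.23 for chromatin and fork protection. They were 1.96 for polymerases and primase, 1.87 for helicase activation, 1.80 for single-strand binding and fragment joining and 1.08 for the clamp and its loader. On log2(TPM + 1), a scale that compresses low genes, the order of the steps between changed: cyclin E and E2F stood at 1.43, next to the lowest, and single-strand binding and fragment joining at 1.97, while origin licensing stayed widest at 2.41 and the clamp and its loader narrowest at 1.24. The spans of neighbouring steps overlapped: origin licensing covered 1.80 to 3.36 and nucleotide supply 1.88 to 2.86. No clamp or loader gene lay above the 90th percentile of all genes, and the widest of them, Rfc4 at 1.87, exceeded only Cdt1 of the licensing genes. No test of the step medians was made, since the genes of a step are not replicates.

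**Figure D3:**
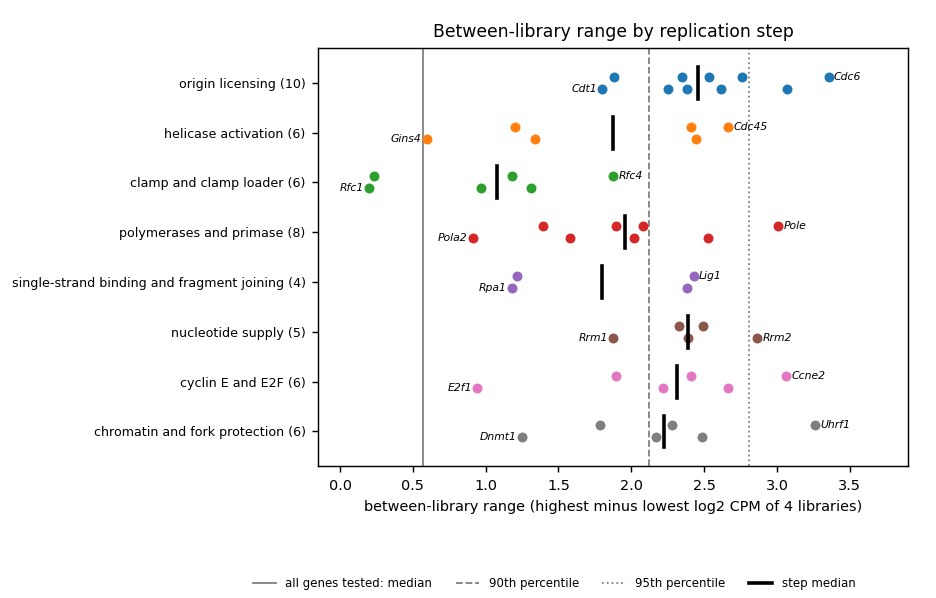
The highest minus the lowest log2 CPM of the 4 libraries for each gene, by replication step, with the number of genes of the step in parentheses and the step median as a black bar. Vertical lines give the median (0.57), the 90th percentile (2.12) and the 95th percentile (2.81) of all 14041 genes tested, and the clamp and its loader lie lowest.

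These ranges rested on replicate 1. Over replicates 2, 3 and 4 alone, the median range of the 51 genes was 0.24, against 0.25 for all genes tested. A Poisson deviance test across the 4 libraries found all 51 genes to vary beyond counting error, beside 82.8% of all genes. Its calls depend on the number of counts. The 51 genes had a median mean count of 418 over the 4 libraries, against 602 for all genes tested. Over replicates 2 to 4 the Poisson test found 21 of the 51, or 41.2%, beside 60.1% of all genes. The step with the widest median range over these 3 libraries was nucleotide supply, at 0.54, with 4 of its 5 genes past the Poisson test. The other steps lay between 0.16 and 0.27. Tyms had the widest range of the 51 over these 3 libraries, 0.91, with log2 CPM of 0.94, 1.61 and 1.85 in replicates 2, 3 and 4. E2f7 followed with 0.63, Pole with 0.59, Tk1 with 0.57 and Dut with 0.54. The lowest library was not shared: it was replicate 2 for Tyms, Tk1 and Pole, and replicate 4 for Dut and E2f7. The narrowest was Fen1, with 0.05.

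**Figure D4:**
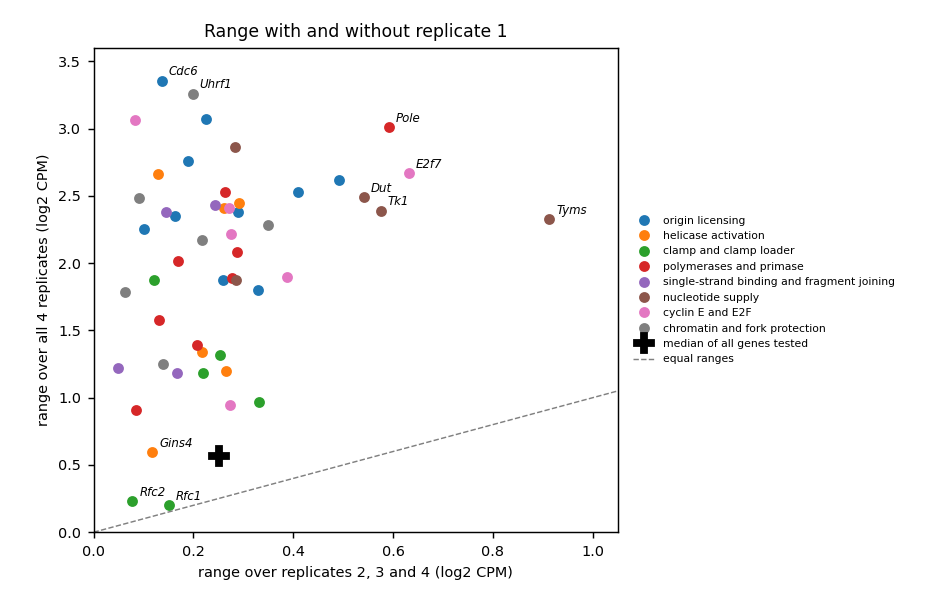
The range over all 4 replicates against the range over replicates 2, 3 and 4, both in log2 CPM, with 1 point per gene coloured by step. The black cross is the median of all genes tested, and the 51 genes lie above the dashed line of equal ranges while all but 5 lie at or below 0.5 on the horizontal axis.

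Protein-coding transcripts made up 89.3% of the TPM of the 51 genes in replicate 1, against 87.6%, 85.0% and 83.7% in replicates 2, 3 and 4. Retained-intron transcripts made up 8.71% in replicate 1, against 10.9%, 13.0% and 13.8% in the others. These are shares of the summed TPM, so they can rest on few genes. The leading retained-intron form of Rfc2 alone had 14.9 TPM in replicate 1, against 9.24, 9.87 and 14.3 TPM in the others. The shares without Rfc2 were not worked out. The leading transcript was protein-coding for 48 genes and was the same in all 4 libraries for 47, with Cdc6, Cdc45, E2f1 and E2f8 as the exceptions. Rfc2, Tyms and Lig1 were led by transcripts that are not annotated as protein-coding. Of the 45 genes that share less than 20% of their 31-base words with other genes, 43 were called higher in replicate 1.

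The lists were chosen with earlier results of these data known, so a difference between them may follow from that choice, which was not tested. Other genes of DNA replication had a smaller median fold. Of 41 that are not among the 51, 26 were called higher and 1 lower in replicate 1, with a median log2 fold of 0.96. Timeless, the partner of Tipin, had 5.73 TPM in replicate 1, against 0.74, 0.81 and 0.96 TPM in replicates 2, 3 and 4, with a log2 fold of 2.42 ± 0.15. Top1, the topoisomerase that relieves strain ahead of forks, had a log2 fold of 1.23 ± 0.08. Samhd1, which degrades dNTPs, was the lower one, with 73.4 TPM in replicate 1, against 105, 100.4 and 151 TPM, and a log2 fold of -0.80 ± 0.11 with an adjusted p of 0.0112.

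Of 24 other genes of G1-S control, 15 were called higher and 1 lower in replicate 1, with a median log2 fold of 0.63. Ccnd1, a D-type cyclin that acts with Cdk4 and Cdk6, had 145 TPM in replicate 1, against 11.3, 12.9 and 11.1 TPM in replicates 2, 3 and 4, with a log2 fold of 3.36 ± 0.28. Its relative Ccnd2 had a log2 fold of 2.50 ± 0.31. Cdkn1a, the inhibitor p21, had 97.3 TPM in replicate 1, against 58.3, 58.0 and 91.9 TPM, and its log2 fold of 0.28 ± 0.09 did not pass (adjusted p = 0.0877). The lower gene was Cdkn1b, the inhibitor p27, at -1.01 ± 0.19, which is named as the 1 gene of its count and was chosen after its value was seen. Of 20 mitosis genes, 11 were called higher and the other 9 did not pass, and their median log2 fold was 0.99. Cdk1, the mitotic kinase, had 26.6 TPM in replicate 1, against 6.19, 6.48 and 10.9 TPM, with a log2 fold of 1.59 ± 0.18. Top2a and Bub1 had log2 folds of 1.51 ± 0.15 and 1.60 ± 0.26. Over replicates 2, 3 and 4 the median range of the mitosis genes was 0.57, against 0.24 for the 51 replication genes, and replicate 3 was the lowest library for 18 of the 20.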

How the data were processed

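The deposited gene tables hold expected counts and TPM per gene, and the deposited transcript tables hold expected counts, TPM and the percent of each gene's TPM per transcript. A second set of deposited tables holds estimated counts and TPM per transcript, here summed per gene. The genome build (mm10) and the annotation (GENCODE M21) come from text deposited with the files. The aligner and quantifier used by the authors were not given in the sources used here. The 26345 rows that name no gene, with between 0.0267% and 0.407% of the counts, were left out.

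Expected counts were rounded to whole numbers. Each replicate was tested against the other 3 with edgeR 4.0.16 (quasi-likelihood, TMM, mean count of at least 10, Benjamini-Hochberg over all genes, threshold 0.05) in R 4.3.3 with limma 3.58.1, and a Poisson deviance test was run across libraries. Each standard error given is the absolute log2 fold divided by the square root of the F statistic of its edgeR test. Ranges used log2 CPM with a prior count of 2. DESeq2 1.42.0 was an alternative, beside DESeq2 size factors, no filter, a mean count of at least 50, the second tables, a prior count of 0.5, log2(TPM + 1) and leaving out each replicate. Tables and figures used Python 3.11.15, numpy 2.4.6, pandas 2.3.3 and matplotlib 3.10.9. The fits were tested on simulated data. The members, steps and lists were chosen with earlier results of these data known. All 51 members are named, and from each pathway list the 2 genes of highest mean TPM and the 2 of widest range among those with a mean of at least 1 TPM. A gene that this rule names is not reported here. Counting floors cover counting error only.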

Additional observations from a re-analysis of the deposited data

Results flagged for a closer look

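In a group of 4 libraries, 1 library was marked where its gap to the nearest other exceeded the 95% critical value of Dixon's ratio, the gap divided by the whole range of TPM. Chance marks about 1 in 20 groups. The share marked over all genes was not worked out. Replicate 1 stood apart over the whole table, so that share may be higher than chance. Of the 51 replication genes 34 were marked and 17 were not, and in each marked case replicate 1 was the highest library. Among origin licensing genes the ratio was 0.862 for Orc6, 0.927 for Cdc6, 0.917 for Cdt1, 0.944 for Mcm2, 0.937 for Mcm3, 0.937 for Mcm4, 0.948 for Mcm5, 0.941 for Mcm6 and 0.903 for Mcm7. Among helicase activation genes the ratio was 0.858 for Mcm10, 0.9 for Cdc45, 0.922 for Gins1 and 0.87 for Gins2. Among clamp and clamp loader genes the ratio was 0.864 for Pcna and 0.859 for Rfc4. Among polymerases and primase genes the ratio was 0.887 for Pola1, 0.891 for Prim1, 0.947 for Pold1, 0.917 for Pold2, 0.935 for Pole and 0.847 for Pole2. Among single-strand binding and fragment joining genes the ratio was 0.881 for Rpa2 and 0.938 for Lig1. Among nucleotide supply genes the ratio was 0.913 for Rrm2 and 0.914 for Dut. Among cyclin E and E2F genes the ratio was 0.837 for Ccne1, 0.913 for Ccne2, 0.882 for E2f7 and 0.86 for E2f8. Among chromatin and fork protection genes the ratio was 0.953 for Uhrf1, 0.868 for Chaf1a, 0.861 for Chaf1b, 0.924 for Clspn and 0.882 for Tipin. Among the other replication genes it was 0.956 for Timeless. Among the other G1-S control genes it was 0.986 for Ccnd1 and 0.948 for Ccnd2. For whole libraries the ratio was 0.855 for the summed TPM of the 51 genes and 0.985 for their percent of counts. No cause was tested.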

How the results depend on the processing

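Of the 49 calls in replicate 1, between 47 and 49 remained under each alternative for which the comparison could be made, and 0 of the 51 genes were called lower in any. Tyms lost its call on the second set of tables, Gins4 in DESeq2 and without replicate 4, and Tyms and Gins3 without replicate 3. With a replicate left out, the number of the 51 genes varying beyond counting lay between 21 and 51. The median range lay between 0.24 and 2.46 for origin licensing, 0.24 and 1.87 for helicase activation, 0.18 and 1.06 for the clamp and its loader, 0.24 and 1.95 for polymerases and primase, 0.16 and 1.80 for single-strand binding and fragment joining, 0.54 and 2.39 for nucleotide supply, 0.27 and 2.24 for cyclin E and E2F, and 0.17 and 2.22 for chromatin and fork protection; the lowest value came each time without replicate 1, which by construction removes the highest library of all 51 genes. On the second set of tables mean TPM was lower for all 51 genes, by 1.27 to 3.21 times; 9 moved by more than their SD over the libraries, which replicate 1 widens. On log2(TPM + 1) the step median of cyclin E and E2F was 1.43, against 2.31 on log2 CPM, and the order of the middle steps changed. No paired analysis was possible because there is 1 group. The comparison of replicate 1 has 3 libraries on its other side and no second library like it, which limits what its p-values can show.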
